A study of Mus musculus with 11 samples.

Results

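Apolipoproteins are the protein coats of the particles that carry fat and cholesterol in lymph and blood. The gene set described here held 8 of the 22243 genes in the deposited table: Apoa1, Apoa4, Apoa5 and Apoc3, which lie side by side on chromosome 9, and Apob, Apoe, Apoc2 and Mttp, which lie elsewhere. The genes were chosen by name, with earlier results of the comparison of knockout and wild-type mice in view. Their values in that comparison are therefore given as a description, and no conclusion is drawn from its test for them.

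The RNA came from full-thickness distal colon of 5 mice homozygous for a knockout of Nrg4 (Nrg4-/-, KO) and 6 wild-type mice (WT), so that epithelium, immune cells, muscle and nerve were measured together. The product of Nrg4, neuregulin-4, is a growth factor that binds the receptor ErbB4. KO and WT mice had been mixed in 3 cages from 9 weeks of age and were dissected at 11 to 12 weeks. Cage A held KO-1, KO-8, WT-5 and WT-7. Cage B held KO-4, KO-9, WT-2 and WT-11, and cage C held KO-3, WT-6 and WT-10. The labels state that both sexes were used but give no sex per mouse, and they name no background strain, no deleted exons and no other allele or treatment. Values are in TPM, the usual abundance unit that allows for transcript length and library size, with the listed transcripts of a gene summed. Nrg4 itself was listed at 0 TPM in all 11 mice, so its RNA could not check the genotype labels. Eif2s3y, a Y-linked gene, reached at least 21.5 TPM in every cage A mouse and at most 0.0523 TPM in the others, so cage A and male sex cannot be told apart in these samples. Mitochondrially encoded genes took between 19.0% and 42.9% of the summed TPM of a mouse.

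In the small intestine, enterocytes package dietary fat into chylomicrons. Apob is the single large scaffold protein of each particle, and Mttp encodes the transfer protein that loads lipid onto it in the endoplasmic reticulum. Apoa4 and Apoa1 are added as surface proteins, and Apoa1 is also the main protein of high-density lipoprotein. Apoc2 activates lipoprotein lipase, Apoc3 holds the lipase and the uptake of remnants back, and Apoa5, made chiefly in liver, promotes lipolysis. Apoe is the ligand through which remnants are taken up, and it is made by hepatocytes, macrophages and glia. The colon absorbs little dietary fat, and the apolipoproteins of chylomicrons are known mainly from the small intestine and the liver.

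The cluster runs from 46228580 to 46271919 on chromosome 9 of the mm10 (GRCm38) build, a span of 43.34 kb, in the order Apoa1, Apoc3, Apoa4 and Apoa5. Apoc3 is on the minus strand and the other 3 genes are on the plus strand. Nrg4 lies on the same chromosome, at 55220222 to 55326844, with 8.95 Mb between it and the cluster. Apob lies on chromosome 12 (7977648 to 8016835), Mttp on chromosome 3 (138089854 to 138144968), and Apoe (19696109 to 19699188) and Apoc2 (19671579 to 19677941) on chromosome 7. RefSeq's promoter table for GRCm38.p6, which runs from 250 bases before to 50 bases after a start, matched 7 of the 8 genes. The gene without an entry was Apoc3. The promoters of Apoa1 and Apoa4 are shown because both genes had their highest value of each genotype in the same mice. In WT, however, that Apoa4 value was only 0.0493 TPM. The promoter of Apob is shown because it is the scaffold of the particle and was present in every mouse. Capitals mark matches, on either strand, to CAAAGNNCA or TCA, 4 bases of any kind and TCA, letters found in the direct repeats that nuclear receptors such as HNF4 bind, and matches on the printed strand to TATAAA. Each printed sequence is on the plus strand, 5′ to 3′.
Apoa1, chr9:46228380-46228679: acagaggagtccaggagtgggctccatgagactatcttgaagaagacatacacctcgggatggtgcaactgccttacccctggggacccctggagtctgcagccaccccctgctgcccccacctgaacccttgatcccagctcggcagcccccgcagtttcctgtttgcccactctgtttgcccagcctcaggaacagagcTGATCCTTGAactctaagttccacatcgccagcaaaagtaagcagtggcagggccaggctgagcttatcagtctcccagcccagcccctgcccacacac
Apoa4, chr9:46240594-46240893: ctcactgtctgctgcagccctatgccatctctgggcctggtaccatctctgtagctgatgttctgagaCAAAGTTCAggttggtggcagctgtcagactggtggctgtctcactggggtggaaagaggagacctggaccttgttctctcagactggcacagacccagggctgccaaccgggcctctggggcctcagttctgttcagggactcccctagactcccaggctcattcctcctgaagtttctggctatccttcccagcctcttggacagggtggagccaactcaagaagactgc
Apob, chr12:7977427-7977726: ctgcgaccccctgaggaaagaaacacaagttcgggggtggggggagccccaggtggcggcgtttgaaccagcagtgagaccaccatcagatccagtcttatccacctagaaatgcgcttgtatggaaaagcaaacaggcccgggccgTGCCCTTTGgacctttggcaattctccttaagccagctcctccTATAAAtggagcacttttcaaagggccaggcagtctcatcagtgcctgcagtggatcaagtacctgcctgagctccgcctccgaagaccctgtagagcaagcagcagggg

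The Apoa1 promoter held the spaced pair of TCA 49 bases before the RefSeq start. The Apoa4 promoter held CAAAGNNCA 182 bases before it, and the Apob promoter held CAAAGNNCA 103 bases and TATAAA 60 bases before it. Gene starts in the GENCODE M21 annotation, which gave the gene coordinates above, lie upstream of these RefSeq starts. They are 46228580 for Apoa1, 46240696 for Apoa4 and 7977648 for Apob, each inside the printed window. By these starts, each window reaches farther into its gene, the Apoa1 match lies within the gene, and the distances differ. Among 32851 promoters of the same length, CAAAGNNCA was found in 6.36%, the spaced pair in 15.9% and TATAAA in 8.32%. These matches describe the letters of the window and do not show binding.

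The levels of the 8 genes spanned a wide range in distal colon, with Apoe far above the rest. Apoe averaged 95.7 ± 33.7 TPM over all mice (SD, n = 11) and exceeded Apoc2, the next gene by mean, in 11 of 11 mice without overlap of the ranges. Apoc2 averaged 11.9 ± 10.8 TPM, Apob 2.01 ± 0.552 TPM and Mttp 0.908 ± 0.255 TPM (SD, n = 11 each). The 4 cluster genes were each listed at or near 0 in at least 1 mouse. By their means, Apoc3 came after Apoc2, followed by Apob, Apoa1, Mttp, Apoa4 and Apoa5, and the ranges of each neighbouring pair below Apoe and Apoc2 overlapped. Apoc3 exceeded Apob in 5 of 11 mice, Apob exceeded Apoa1 in 9 and Apoa1 exceeded Mttp in 7. Within each of those pairs, the order was therefore not the same in every mouse.

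**Figure D1:**
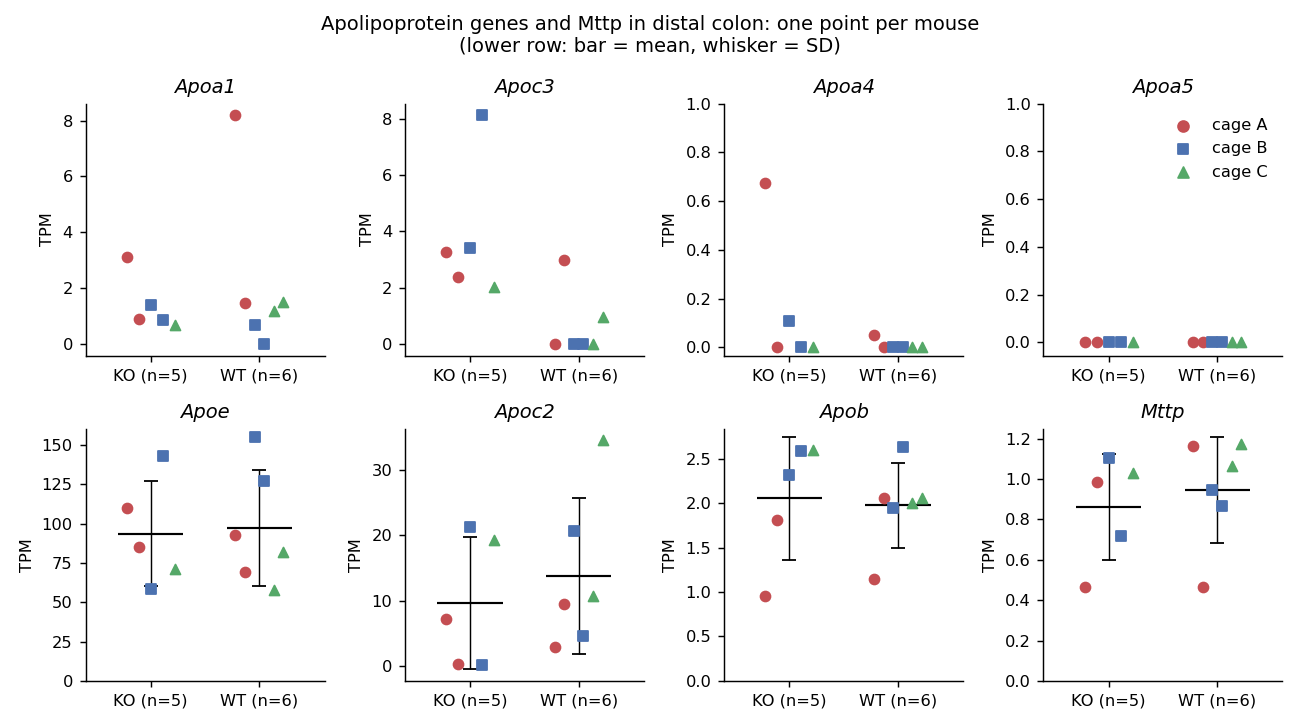
TPM of each of the 8 genes by genotype, KO left and WT right, 1 point per mouse, with colour and shape giving the cage; in the lower row bars are means and whiskers SDs, which are left out where mice were listed at or near 0. Apoc3 lies between 2.02 and 8.13 TPM in KO and at or below 2.995 TPM in WT, while the other genes overlap broadly or are at 0.

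Among the cluster genes, Apoc3 had the largest difference between the genotypes. It was listed at 3.26 TPM in KO-1, 2.39 in KO-8, 3.41 in KO-4, 8.13 in KO-9 and 2.02 in KO-3. In WT it was listed at 2.995 TPM in WT-7, 0.964 in WT-10 and at or near 0 in WT-5, WT-2, WT-11 and WT-6. The genotypes overlapped through WT-7 alone, which exceeded KO-8 and KO-3. The log2 fold change, KO against WT, was 2.21 ± 0.59 on the log2(TPM + 0.5) scale, where ± is the standard error of a limma fit with cage as a term. That scale understates changes of low genes, and with a pseudocount of 0.1 in place of 0.5 the value was 3.72. Taken cage by cage, the mean log2 values of KO and WT were 1.32 apart in cage A, 3.54 apart within cage B, and 1.56 apart within cage C, which has 1 KO mouse, with KO higher each time. Apoc3 met the minimum of 1 TPM in 5 mice through the KO group, with 5 KO mice and 1 WT mouse at or above 1 TPM.

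The Apoc3 values rested on few reads. TPM keeps no depth, but the authors deposited a mean observed value per transcript, read here as a natural log count. It gave an approximate count per TPM for transcripts within 10% of the same length. The same factor was applied to all mice, so the counts carry no depth of single libraries and scale with TPM. By this scale, the Apoc3 values corresponded to 5.87 to 23.7 counts per KO mouse and 0 to 8.70 per WT mouse, with totals of 60.1 in the 5 KO mice and 12.1 in the 6 WT mice. The table listed 2 Apoc3 transcripts, of 526 nt and 453 nt, out of 5 in GENCODE M21. The longer had 188 bases and the shorter 115 bases that the other lacks. Mice differed in which of the 2 carried the signal: the longer one alone in KO-4, KO-8 and WT-10, the shorter one alone in KO-3 and WT-7, and both in KO-1 and KO-9. The authors' deposited table gives no p-value for either transcript.

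Apoa1, the neighbour of Apoc3, was detected in both genotypes and did not separate them. It was listed at 3.10 TPM in KO-1, 0.888 in KO-8, 1.39 in KO-4, 0.873 in KO-9 and 0.688 in KO-3. In WT it was listed at 8.19 TPM in WT-5, 1.48 in WT-7, 0.699 in WT-2, 0 in WT-11, 1.18 in WT-6 and 1.51 in WT-10. The WT values spanned the whole KO range, and the highest mouse of each genotype was in cage A. The log2 fold change was -0.10 ± 0.50, and cage by cage the difference was -0.89 (cage A), 1.06 (mice of cage B) and -0.63 (mice of cage C). The direction turned with single mice, at 0.32 without WT-5, 0.21 without KO-8 and 0.08 without KO-3. By the approximate scale, the values stood for 6.27 to 28.3 counts in KO and 0 to 74.7 in WT.

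Apoa4 and Apoa5 were at the floor and did not meet the minimum. Apoa4 was listed at 0.673 TPM in KO-1, 0.106 in KO-4 and 0 in the other 3 KO mice, and at 0.0493 TPM in WT-5 and 0 in the other 5 WT mice. KO-1 and WT-5, the mice with the most Apoa4, were also those with the most Apoa1 in their genotype. The largest Apoa4 value stood for about 11.7 counts and that of WT-5 for about 0.86, so in WT the match rests on almost no reads. Apoa5 was listed at 0 in all 11 mice for both of its listed transcripts, out of 6 in GENCODE M21. The antisense gene models Gm47528 and Gm10680 overlap Apoa4 and Gm47544 overlaps Apoa5. The library kit was stranded, but the sources used here do not say whether the counting used strand.

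Of the genes elsewhere in the genome, Apob, the chylomicron scaffold, was low but steady. It was listed at 0.960 TPM in KO-1, 1.81 in KO-8, 2.32 in KO-4, 2.58 in KO-9 and 2.60 in KO-3, and at 1.15 in WT-5, 2.06 in WT-7, 1.94 in WT-2, 2.63 in WT-11, 2.001 in WT-6 and 2.06 in WT-10. KO mice averaged 2.05 ± 0.689 TPM (SD, n = 5) and WT mice 1.97 ± 0.475 TPM (SD, n = 6), with overlapping ranges and a log2 fold change of 0.05 ± 0.19. The lowest mouse of each genotype was in cage A. Because the listed transcript is 13934 nt long, these low levels stood for about 139.8 to 378.2 counts in KO and 167.3 to 383.2 in WT, far more than for the short Apoc3 transcripts at similar TPM.

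Mttp, the transfer protein that lipidates Apob, was near 1 TPM in both genotypes. It was listed at 0.466 TPM in KO-1, 0.986 in KO-8, 1.104 in KO-4, 0.720 in KO-9 and 1.03 in KO-3. The WT values were 1.16 TPM in WT-5, 0.466 in WT-7, 0.947 in WT-2, 0.865 in WT-11, 1.06 in WT-6 and 1.17 in WT-10. The genotypes overlapped throughout, with means of 0.862 ± 0.264 TPM in KO (SD, n = 5) and 0.946 ± 0.265 TPM in WT (SD, n = 6) and a log2 fold change of -0.05 ± 0.21. Mttp met the minimum with exactly 5 mice at or above 1 TPM.

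Apoe, the remnant ligand, was the most abundant of the 8 genes in both genotypes. It was listed at 109.8 TPM in KO-1, 85.5 in KO-8, 58.7 in KO-4, 142.8 in KO-9 and 71.5 in KO-3, and at 92.8 in WT-5, 69.6 in WT-7, 155.4 in WT-2, 127.3 in WT-11, 57.9 in WT-6 and 81.8 in WT-10. The means were 93.7 ± 33.4 TPM in KO (SD, n = 5) and 97.5 ± 37.0 TPM in WT (SD, n = 6), with a log2 fold change of -0.12 ± 0.25. KO-9, WT-2 and WT-11, the 3 highest mice, all came from cage B, which also held KO-4, the lowest KO mouse. Of the Apoe signal, 68.7% was assigned to 1 transcript of 1221 nt and 29.6% to another of 1104 nt, and the second was at or near 0 in KO-8 alone. Only 37 bases of the second transcript are its own among the listed ones.

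Apoc2, the lipase activator, varied most from mouse to mouse among the genes elsewhere. It was listed at 7.23 TPM in KO-1, 0.265 in KO-8, 21.2 in KO-4, 0.0851 in KO-9 and 19.2 in KO-3, and at 2.86 in WT-5, 9.44 in WT-7, 20.7 in WT-2, 4.54 in WT-11, 10.6 in WT-6 and 34.5 in WT-10. The highest mouse had 405 times the value of the lowest. The means were 9.60 ± 10.1 TPM in KO (SD, n = 5) and 13.8 ± 11.9 TPM in WT (SD, n = 6), and the log2 fold change was -1.04 ± 0.97.

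The table also lists Gm44805, a read-through gene model that runs from Apoc4 through Apoc2 and shares sequence with Apoc2. In KO mice its share of the summed TPM of Apoc2 and Gm44805 was 0% in KO-1, 96.9% in KO-8, 25.8% in KO-4, 99.5% in KO-9 and 21.4% in KO-3. In WT mice the share was 71.1% in WT-5, 42.3% in WT-7, 8.28% in WT-2, 81.9% in WT-11, 49.3% in WT-6 and 0.452% in WT-10. KO-8 and KO-9, the mice with almost no Apoc2, thus had 8.16 and 16.6 TPM of the read-through model. The sum of both was 7.23 TPM in KO-1, 8.43 in KO-8, 28.6 in KO-4, 16.7 in KO-9 and 24.5 in KO-3, against 9.90 TPM in WT-5, 16.3 in WT-7, 22.5 in WT-2, 25.1 in WT-11, 20.98 in WT-6 and 34.6 in WT-10. Summed, the highest value of KO was 3.95 times the lowest, and the highest of WT 3.50 times the lowest. The sum was chosen after the values of Apoc2 were seen. It averaged 17.1 ± 9.47 TPM in KO (SD, n = 5) and 21.6 ± 8.34 TPM in WT (SD, n = 6), with overlapping ranges and a log2 fold change of -0.33 ± 0.20.

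**Figure D2:**
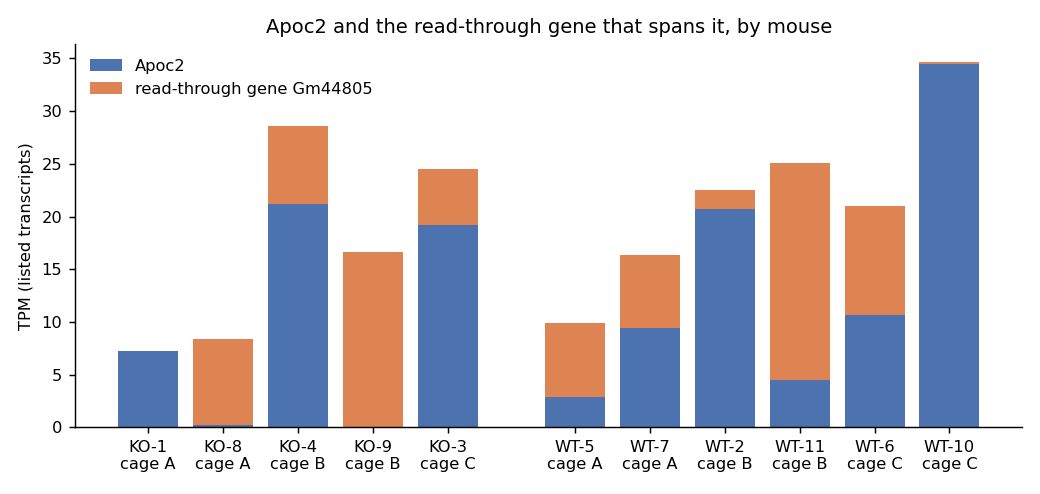
Stacked bars give the TPM of Apoc2 and of its read-through gene Gm44805 in each mouse, KO mice left and WT mice right, in the order of cages A, B and C. In KO-8 and KO-9 nearly all of the sum is listed under Gm44805, and in KO-1 none. The 4 mice of cage A have the lowest sums, from 7.23 to 16.3 TPM. Cage A did not overlap the other cages in 4.04% of all genes tested.

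Of the 6 genes that met the minimum, 0 passed a false discovery rate (FDR) of 0.05 in the genotype comparison, in which 0.0372% of the 10756 genes tested passed. The choice of the genes rested on this comparison, so nothing is read from this count. The median log2 fold change of all genes tested was -0.01.

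The other tested genes around the cluster were spread on both sides of 0. Within 500 kb on either side, 10 genes outside the set were tested. Of these, 4 had a positive and 6 a negative log2 fold change, with a median of -0.03 and a range of -0.23 to 0.43. By limma, 0 of the 10 passed the FDR, against 0.0372% of all genes tested, and 1 was under an unadjusted p of 0.05, against 3.10% of all genes tested. Bace1, which encodes the beta-secretase, had 2.91 ± 0.248 TPM in KO (SD, n = 5) and 2.23 ± 0.312 TPM in WT (SD, n = 6), with a log2 difference of 0.35 ± 0.13 and a limma FDR of 1.00. Rnf214 had a log2 fold change of 0.43 ± 0.21, Bud13 of -0.23 ± 0.16 and Pafah1b2, a subunit of a platelet-activating factor acetylhydrolase, of -0.14 ± 0.15 (limma FDR 1.00 each).

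**Figure D3:**
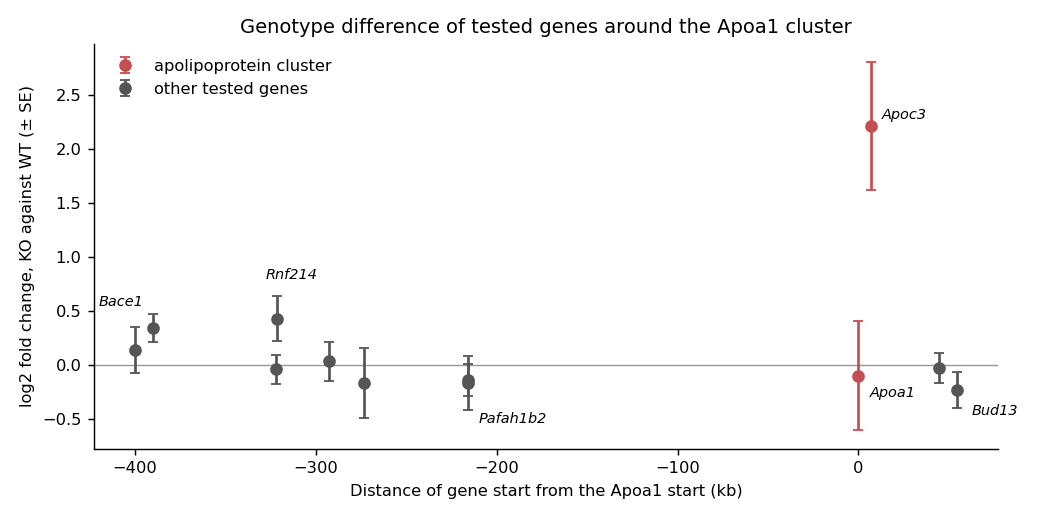
Log2 fold change, KO against WT, of each tested gene near the cluster against the distance of its start from the Apoa1 start in kb; whiskers are standard errors and the cluster genes are in red. Apoc3, at 2.21 ± 0.59, is the highest point, while Apoa1 and the 10 other genes lie between -0.23 and 0.43.

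The rest of the pathway is described in 5 lists, of which 58 of 82 genes met the minimum. In these lists 0 genes passed the FDR in either direction, against 0.0372% of all genes tested. An unadjusted limma p under 0.05 was reached by 0 of them, against 3.10% of all genes tested. The lists were chosen with earlier results of these data known, so nothing is read from these counts. The remaining apolipoproteins had 4 of 13 genes tested, 1 with a positive and 3 with a negative log2 fold change, and a median of -0.37. Among them, Apoa2, a protein of high-density lipoprotein, had 1.65 ± 0.809 TPM in KO (SD, n = 5) and 2.65 ± 1.26 TPM in WT (SD, n = 6), a log2 fold change of -0.41 ± 0.18. Clu, which encodes the chaperone clusterin, had -0.50 ± 0.45. The acute-phase apolipoprotein Saa1, named here after its values were seen, stood above every other gene of the list, at 2767 to 4714 TPM in KO and 2535 to 4435 TPM in WT.

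Genes of chylomicron assembly and fat absorption had 17 of 20 members tested. Of these, 7 had a positive and 10 a negative log2 fold change, with a median of -0.01. Dgat1, an enzyme of triglyceride synthesis, had 8.53 ± 2.52 TPM in KO (SD, n = 5) and 11.1 ± 2.98 TPM in WT (SD, n = 6), a log2 fold change of -0.32 ± 0.21. Sec23b, a coat protein of vesicles that leave the endoplasmic reticulum, had 0.38 ± 0.27. Uptake and remodelling genes had 12 of 17 members tested, 6 in each direction, with a median of 0.04. In that list the remnant receptor Lrp1 had 0.22 ± 0.20 and the endothelial lipase Lipg 0.27 ± 0.24. Sterol transport genes had 6 of 9 members tested, 1 with a positive and 5 with a negative log2 fold change, and a median of -0.06. Soat1, which esterifies cholesterol, had 0.20 ± 0.14, and the lysosomal cholesterol carrier Npc2 had -0.12 ± 0.11. The limma FDR was 1.00 for each gene named.

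Transcription factors known to act on apolipoprotein genes had 19 of 23 members tested. Of these, 8 had a positive and 11 a negative log2 fold change, with a median of -0.02. Cdx2, a factor of intestinal identity, had 13.8 ± 5.83 TPM in KO (SD, n = 5) and 10.2 ± 5.79 TPM in WT (SD, n = 6), with a log2 difference of 0.43 ± 0.23 and a limma FDR of 1.00. Hnf4a, named here after its values were seen because it is the classical activator of the cluster, ranged from 6.20 to 90.5 TPM in KO and from 6.43 to 63.2 TPM in WT. The ranges overlapped, with means of 54.8 ± 32.1 TPM in KO (SD, n = 5) and 37.5 ± 22.9 TPM in WT (SD, n = 6). Its log2 fold change was 0.38 ± 0.74.

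Markers of cells that make apolipoproteins in quantity were set beside these values. Of 14 small intestinal enterocyte markers, 7 were tested and 0 passed the FDR, against 0.0372% of all genes tested. Counts of 0 in lists this short are near that share, so nothing is read from them, here or in the other marker lists. The summed level of the enterocyte markers was 144.8 to 242.1 TPM in KO and 181.1 to 255.1 TPM in WT. Members of this list lay at both ends of the range, and those named next were picked with their values known. Lct, Sis, Alpi, Slc2a2 and Gata4 stayed at or below 0.885 TPM in every mouse, and Gata4 was at 0 in each KO mouse. The retinol binding protein Rbp2 averaged 101.1 ± 38.4 TPM in KO (SD, n = 5) and 98.0 ± 27.6 TPM in WT (SD, n = 6). The glucose transporter Slc5a1 averaged 44.2 ± 5.46 TPM in KO and 48.6 ± 6.31 TPM in WT, and the fatty acid binding protein Fabp2 20.7 ± 5.28 TPM in KO and 19.4 ± 4.41 TPM in WT (SD, same n). The bile acid binding protein Fabp6 had 25.5 ± 5.95 TPM in KO (SD, n = 5) and 41.4 ± 15.3 TPM in WT (SD, n = 6), with a log2 difference of -0.65 ± 0.25 and a limma FDR of 1.00, and Ada had -0.18 ± 0.12. Of 8 hepatocyte markers, 3 were tested, 0 passed, and their summed level was 84.1 to 123.7 TPM in KO and 88.6 to 124.1 TPM in WT. Fga and Fgb, which encode fibrinogen chains, were listed at 0 in all 11 mice, and albumin (Alb) was at 0.866 to 1.73 TPM in KO and 0.449 to 1.13 TPM in WT; these 3 were also picked with their values known. Most of the hepatocyte sum was Ttr, with a log2 fold change of 0.09 ± 0.10, while Cps1 had -0.20 ± 0.29.

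All 10 colonocyte markers were tested and 0 passed, against 0.0372% of all genes tested. Their summed levels were 6396 to 8862 TPM in KO and 6101 to 10562 TPM in WT, which fits the labelled tissue. Cdx2 is also in this list, and Slc37a2 had a log2 fold change of 0.36 ± 0.42. Of 9 macrophage markers, 7 were tested, 2 with a positive and 5 with a negative log2 fold change, and 0 passed. Their summed level was 58.2 to 169.5 TPM in KO and 44.4 to 174.4 TPM in WT. Mrc1 had -0.27 ± 0.18 and C1qb -0.31 ± 0.25. Of the 4 enteric glia markers 2 were tested, S100b at 0.20 ± 0.21 and Gfap at -0.25 ± 0.29, with sums of 4.396 to 6.45 TPM in KO and 4.003 to 6.31 TPM in WT. Of the 5 adipocyte markers only Cidec was tested, at -0.69 ± 0.40, with sums of 0.615 to 3.38 TPM in KO and 0.769 to 21.99 TPM in WT. The part of these cell types in the apolipoprotein values was not tested by genotype, and in bulk tissue fewer cells of a type and less RNA per cell cannot be told apart.

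A further comparison was of cage A with cages B and C, a contrast that the rule for choosing the genes does not use, although earlier results of it were known. By limma with genotype as a term, 0 of the 6 tested genes passed the FDR, in a comparison in which 0.0465% of all genes did. An unadjusted p under 0.05 was reached by 2 of the 6, against 17.4% of all genes. Apob averaged 1.49 ± 0.523 TPM in the mice of cage A (SD, n = 4), 2.37 ± 0.315 TPM in those of cage B (SD, n = 4) and 2.22 ± 0.329 TPM in those of cage C (SD, n = 3). The log2 difference of cage A minus the mean of cages B and C was -0.52 ± 0.19 (limma FDR 0.227). Apoa1 ran the other way, at 0.888 to 8.19 TPM in cage A against 0 to 1.51 TPM elsewhere, a log2 difference of 1.202 ± 0.52 (limma FDR 0.272) that was 0.61 without WT-5 (limma FDR 0.608). The difference was -1.46 ± 1.00 for Apoc2, -0.27 ± 0.22 for Mttp, 0.35 ± 0.61 for Apoc3 and -0.00 ± 0.25 for Apoe, each with a limma FDR of 0.468 or more. The direction for Apoe and Apoc3 was not stable: leaving out WT-7 gave 0.16 for Apoe and -0.40 for Apoc3. The values of cage A overlapped those of cages B and C in each of the 6 genes, whereas they did not overlap in 4.04% of all genes tested. In the 5 pathway lists 0 of 58 tested genes passed the FDR in this comparison and 11 had an unadjusted limma p under 0.05.

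The sum of Apoc2 and its read-through model had a somewhat smaller cage difference than Apoc2 alone, with a smaller standard error. It averaged 10.5 ± 4.06 TPM in the 4 mice of cage A and 24.7 ± 5.73 TPM in the 7 mice of the other cages (both SD). The values did not overlap, as was so for 4.04% of all genes tested. The highest mouse of cage A, at 16.3 TPM, lay just under the lowest of the other cages, at 16.7 TPM. The log2 difference was -1.22 ± 0.21 (limma FDR 0.0972), which did not pass the threshold, and the sum was chosen after the values were seen.

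**Figure D4:**
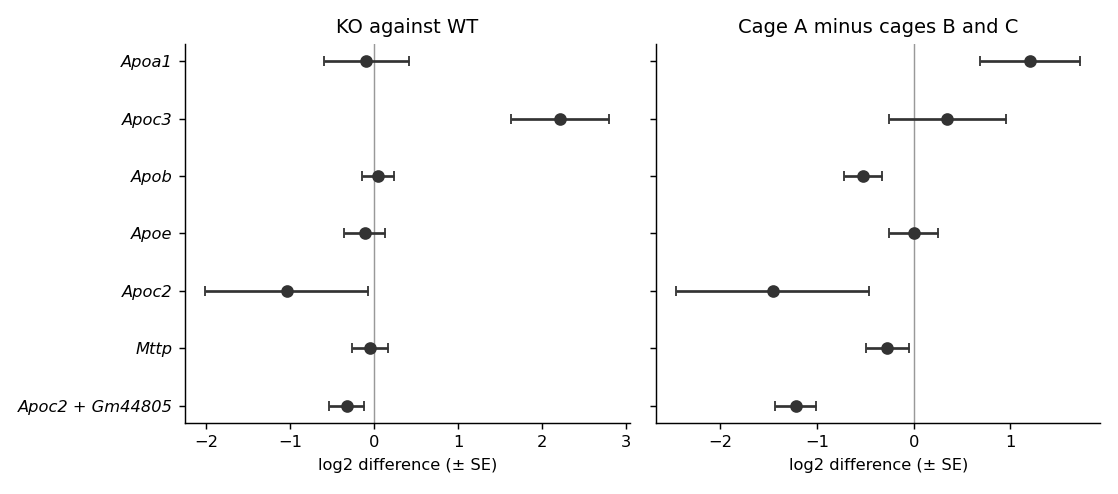
Log2 differences with standard errors of the 6 tested genes and of Apoc2 summed with Gm44805, for KO against WT on the left and cage A minus cages B and C on the right. On the left Apoc3 stands at 2.21 ± 0.59; on the right Apoa1 is at 1.202 ± 0.52 and Apob at -0.52 ± 0.19, and none of the points on the right passed the FDR.

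Over all 3 cages, the F test on both cage terms called 0 of the 6 genes and 0% of all genes, with 0 of the 6 under an unadjusted p of 0.05 and a smallest limma FDR among them of 0.428. Whether the genotype difference depended on cage was asked through the interaction terms, with 1 F test per gene. This called 0 of the 6 genes, against 0.0186% of all genes, and the smallest unadjusted limma p among the 6 was 0.216. Cage C holds 1 KO mouse, which limits this test.

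Among the cell types, macrophages are a known source of Apoe, and Apoe was higher in mice with higher macrophage markers, in a relation that did not pass adjustment. The relation of each of the 6 tested genes to the mean log2 level of 7 macrophage markers and of 10 colonocyte markers was computed over the 11 mice, 12 relations in all. For Apoe and the macrophage markers, Pearson's r was 0.787 (permutation p 0.00558, adjusted over the 12 relations 0.0670) and Spearman's rho was 0.736 (permutation p 0.0128, adjusted 0.154). Neither adjusted value was under 0.05. Without WT-6 and WT-10, the mice farthest from the median marker level, r was 0.767, and after removal of cage and genotype means it was 0.836. The cages hold 4, 4 and 3 mice, too few for a value within each. For the other 11 relations, Pearson's r lay between -0.507 and 0.261, with adjusted permutation p-values of 0.672 or more. Their adjusted permutation p-values for Spearman's rho were 0.399 or more, the lowest for Mttp and the macrophage markers (rho -0.582).

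**Figure D5:**
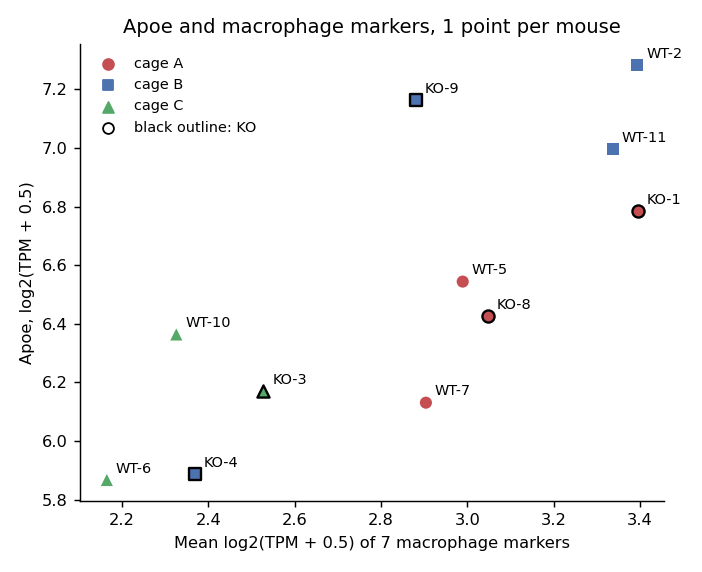
Apoe against the mean of 7 macrophage markers, both as log2(TPM + 0.5), 1 point per mouse, with colour and shape giving the cage and a black outline marking KO. Points climb from lower left to upper right, with r = 0.787 over the 11 mice, and KO and WT mice are intermixed.

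The tested genes whose log2 levels followed each member most closely over the 11 mice, by Pearson's r, are given as a description, since they are the highest of 10756. For Apoa1 they were Tubb6 (0.893), Krt17 (0.881) and C2cd2 (0.877), and for Apoc3 they were Atn1 (0.866), Hspb2 (0.851) and Atp6v1g2 (0.842). Apob was followed most closely by Zfp934 (0.965), Itm2b (0.925) and Pcbd1 (0.921). Among the closest to Apoe were Tmem86a (0.923) and C1qc (0.899), of which C1qc, a complement chain made by macrophages, is also in the macrophage list. Lmbr1 (0.914), Msto1 (0.904) and Tmsb15b2 (0.891) came closest to Apoc2, and Rab3c (0.952), Ang4 (0.921) and Cnr1 (0.890) to Mttp.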

How the data were processed

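Polyadenylated RNA was sequenced from 1 end, 75 nt per read, in stranded libraries, per the labels' protocols. Per the submitters' processing notes, the tools were CASAVA, kallisto and sleuth and the build mm10, with no versions in the sources used here. The authors deposited TPM per principal transcript and mouse, and, per the file headers, their own p-values and q-values, a log2 ratio, a mean natural log count and a likelihood-ratio score per transcript. The table had 29213 rows, of which 405 repeats were dropped, leaving 28808 transcripts of 22243 genes; 22241 matched GENCODE M21. Listed TPM summed to between 558446 and 770986 per mouse. TPM keeps no depth, so no counting interval is given. Other transcripts are not in these values, which can move signal between the listed transcripts of a gene.

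TPM were summed per gene. A minimum of 1 TPM in 5 or more mice kept 10756 genes. Their log2(TPM + 0.5) values were fitted with limma 3.58.1 (R 4.3.3) on genotype and cage, with its mean-variance trend, and p-values were adjusted over all of them by Benjamini-Hochberg (FDR 0.05). The genotype term of this model, but not the cage A contrast, the interaction or the alternatives, was tried on simulated data without a floor at 0. Replicates are separate mice. Permutation tests were two-sided with 100000 resamples. The members and lists were chosen with earlier results of these data known. Genes named beyond the members are the 2 tested genes of each list and the 4 neighbours with the smallest genotype p, and the 3 most correlated genes of each member, without unnamed models and antigen receptor segments; any other gene, apart from label checks and models that overlap a member, is marked as picked with its values known, and 2 genes that the rule names are not reported here. Alternatives varied the pseudocount, filter, scaling, trend, cage term, transcript choice and mice.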

Additional observations from a re-analysis of the deposited data

Results flagged for a closer look

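In 14 groups of 5 or 6 mice (each gene in each genotype, without Apoa5, which was at 0 throughout), 6 groups held a mouse whose gap to the nearest other mouse exceeded Dixon's critical value at the 0.05 level, taken as a share of the group's range. Chance flags about 1 in 20 such groups, and the test assumes values that are not held at a floor of 0. Apoa1 was highest in KO-1 at 3.10 TPM among KO mice (gap 0.711 of the range) and in WT-5 at 8.19 TPM among WT mice (0.816). Apoa4 was highest in the same pair, at 0.673 TPM in KO-1 (0.842) and 0.0493 TPM in WT-5 (1.00). Both mice were in cage A. The Apoa4 value of WT-5 stood for about 0.86 counts, and with all other WT mice at 0 its gap was 1.00 by construction. Apoc3 was highest in KO-9 at 8.13 TPM among KO mice (0.773) and in WT-7 at 2.995 TPM among WT mice (0.678). All 6 flagged values were high, and all were of the chromosome 9 cluster. The cluster genes had few counts, and a floor of 0 can favour high flags, so nothing about the cluster is read from this.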

How the results depend on the processing

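No paired analysis was possible because the mice carry a number each, with none shared between the genotypes. The count of genes past the FDR was 4 for genotype, against 2 with no filter and 2 to 4 with 1 mouse left out. For the cage F test it was 0, against 4 with no filter, 3 with a filter on a mean of 1 TPM and 0 to 2 with 1 mouse left out. For cage A against cages B and C it was 5, against 2 with a pseudocount of 0.1, 9 with a pseudocount of 1, 11 with the filter on the mean, 1 with mitochondrially encoded genes left out of the total, 3 with no trend and 0 to 8 with 1 mouse left out. For the interaction it was 2, against 12 with a pseudocount of 0.1, 49 with no filter and 0 to 5 with 1 mouse left out. None of the 6 tested members passed the FDR in the cage A comparison under any alternative. The Apoc3 log2 fold change, KO against WT, was 3.72 with a pseudocount of 0.1 and 1.62 with a pseudocount of 1. With 1 mouse left out it was 1.86 to 2.74. These values are a description, since Apoc3 was chosen with this comparison in view and met the minimum through the KO group. The Apoc3 log2 fold change could not be fitted with the most abundant transcript alone, which left Apoc3 under the minimum. That of Apoa1 was 0.18 with a pseudocount of 0.1 and -0.44 to 0.32 with 1 mouse left out, that of Apoe was -0.23 to 0.14, the highest without KO-4, and that of Apob was -0.03 to 0.17. For Apoc2 it was -1.72 to -0.23 with 1 mouse left out. Mttp met the minimum in 6 of the 11 fits with 1 mouse left out, and not with the filter on the mean. The cage A difference of Apoa1, 1.202, was 0.61 to 1.59 with 1 mouse left out, the lowest without WT-5. That of Apoe, -0.00, was 0.017 with mitochondrially encoded genes left out, 0.087 with the most abundant transcript and -0.19 to 0.16 with 1 mouse left out; that of Apoc3, 0.35, was -0.40 to 0.73, the lowest without WT-7. The cause of these changes was not tested. The few counts behind Apoc3, Apoa1 and Apoa4 limit what can be read from their values.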
